A study of Rattus norvegicus with 8 samples.

Results

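Microtubules are hollow filaments of alpha- and beta-tubulin, and the genes described here encode the tubulins, proteins that bind microtubules or free tubulin, and the motors that walk on them. The group was defined by gene symbol alone. It holds every probe set on a rat expression array whose single gene symbol begins with Tuba, Tubb, Tubg, Dync, Dynl or Dctn, begins with Stmn, Dpysl, Kif or Klc followed directly by a digit, or is Map1a, Map1b, Map2, Map4, Map6, Mapt, Dcx or Crmp1. The rule selected 58 of 8799 probe sets, which named 36 genes. A further 6 probe sets carried a member's symbol together with other symbols and were not used. Tubb3, Dcx, Map4 and Stmn2 were not analysed here.

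The study asked which genes lie downstream of Pax6, a paired-box and homeobox transcription factor of the early brain and eye, in E12.5 rat embryos. Wild-type and Pax6 homozygous embryos were each split at the isthmus into a forebrain part, which also held the midbrain and the eye and nose primordia, and a hindbrain part, which also held the pharyngeal arches. Each of the 4 groups was measured on 2 Affymetrix U34A arrays, which hybridise labelled RNA to short oligonucleotides. The labels name neither the mutant allele nor the strain, and do not say whether the arrays of a group held separate embryos or pools, so p-values measure the spread between these arrays, which may be technical. Each array had been scaled by the authors, and values are intensities on that scale, which can fall below 0. An array's noise level was set as the size of its 5th percentile and lay between 243 and 620. The number of arrays limits the precision of every value.

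In a developing brain, neural progenitors rely on dynamic microtubules for the mitotic spindle, whereas young neurons stabilise microtubules to build axons and dendrites. Structural microtubule-associated proteins such as Map1b, Map2 and tau (Mapt) bind along the filament, stathmins sequester tubulin dimers, and collapsin response mediator proteins (CRMPs) bind tubulin and relay guidance signals in growth cones. Most kinesins move toward the plus end of the filament, and cytoplasmic dynein with its cofactor dynactin moves toward the minus end.

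Of the 58 probe sets, 29 exceeded the noise level on all 8 arrays, 20 on some and 9 on none. Low values were filtered by requiring an intensity above 255 on at least 2 arrays, after which 49 member probe sets of 32 genes were tested, among 5881 probe sets in all. Genes with no tested probe set were Tuba4a, Kif12, Kif1c and Kif27. The other 5 untested probe sets belonged to Tubb2b, Dync1li2, Klc1, Map1a and Map2, each of which had another that was tested. All 9 untested probe sets were those above noise on no array. The tissues matched their labels: Lhx2, a forebrain transcription factor, read 7768 to 8692 in the forebrain part and 1444 to 1801 in the hindbrain part, and Hoxa5, a hindbrain and spinal cord gene, was above noise on the 4 hindbrain arrays alone. The Pax6 probe set read 636 to 1243 in the forebrain part and 531 to 1194 in the hindbrain part over both genotypes. Because the allele is not named, it is not known whether these probes lie in altered sequence, and the value checks nothing. Summed intensity of 5 tested lens and eye genes was 9119 to 9718 in wild-type forebrain and 2655 to 4173 in Pax6 homozygous forebrain. All 5 had a negative genotype difference there, with a median of -0.20 on the log2 scale, and 0 passed the test used below.

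In the main fit, which ignores the number of the array, 1 member passed the test between the forebrain and hindbrain parts, and no member passed for genotype. With the array number as a block (the replicate block), 2 members passed between the parts, Dpysl4 and Crmp1, and again none for genotype. That fit called 107 of all 5881 probe sets as lower in the forebrain part and 32 as higher. Values are from the main fit unless stated. The CRMP gene Dpysl4 was lower in the forebrain part by 2.71-fold over the 4 arrays of each part (limma, Benjamini-Hochberg adjusted over all 5881 probe sets, threshold 0.05). Across all tested probe sets 1.51% passed in either direction and 1.22% passed as lower in the forebrain part, against 1 of 49 members (2.04%). At an unadjusted p under 0.05 there were 3 members (6.12%), Dpysl4, Crmp1 and Kif3c, against 8.09% of all probe sets. Without a trend on intensity in the variances the count was 7 (14.3%, against 8.28% of all). That count was 7 (14.3%, against 13.5% of all) with the replicate block, and 11 (22.4%, against 10.8%) without the first wild-type forebrain array. A negative difference was found in 37 of 49 members (75.5%), against 53.2% of all probe sets tested, and in 33 to 37 with any 1 array left out. The median log2 difference was -0.18 against -0.02. Within wild-type alone the member median was -0.30, against 0.0017 for all probe sets. Within Pax6 homozygous embryos alone it was -0.066, against -0.041.

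For the genotype comparisons, limma with Benjamini-Hochberg adjustment called 0 of 49 members in the forebrain part, where 0.0170% of all probe sets passed, 0 in the hindbrain part, where 0.0170% passed, and 0 over both regions, where 0.0340% passed. The interaction, which asks whether the genotype difference itself differed between regions, called 0 members and 0% of all probe sets. It was negative in 17 of 49 members (34.7%), against 52.0% of all probe sets tested, with a median of 0.15 against -0.02. At an unadjusted p under 0.05 there were 3 members in the forebrain part (6.12%, against 2.92% of all), 2 in the hindbrain part (4.08%, against 4.49%), 2 over both regions (4.08%, against 5.02%) and 2 for the interaction (4.08%, against 1.90%). Kif11 accounts for 1 of the members in each of the first 3 counts. With the replicate block the 4 counts were 5 (10.2%, against 5.59% of all), 4 (8.16%, against 9.13%), 3 (6.12%, against 10.02%) and 5 (10.2%, against 4.46%). Without the first wild-type forebrain array they were 9 (18.4%, against 6.67%), 2, 8 (16.3%, against 8.47%) and 5 (10.2%, against 3.83%). Leaving out any other single array gave smaller member counts than these in the forebrain part, over both regions and for the interaction. In the hindbrain part the member counts were smaller, equal or larger. The share of all probe sets also moved with the array left out, and each such fit has 1 array in a group, so these counts set the members apart from nothing. The comparisons over both regions and within each region share arrays. Only 1 probe set in each single region passed the test at all, so a difference that misses the threshold is not shown to be absent.

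CRMPs, which carry semaphorin and other guidance signals to the cytoskeleton, were measured by 5 probe sets of 4 genes, of which 1 passed the test between the parts. The forebrain minus hindbrain difference was negative on all 5 with all 8 arrays and on 4 of 5 without the second wild-type forebrain array or without the first Pax6 homozygous forebrain array. The median of the 5 was -0.91 on the log2 scale with all arrays, -0.50 without the second wild-type forebrain array and -0.14 after the floor was raised to the pooled median. Dpysl4 (U52103_at) read 2922 and 2543 on the wild-type forebrain arrays, 2869 and 2762 on the Pax6 homozygous forebrain arrays, 9163 and 7819 on the wild-type hindbrain arrays and 7754 and 5721 on the Pax6 homozygous hindbrain arrays. The lowest hindbrain array lay well above the highest forebrain array. Its mean was 2774 ± 168 (SD, n = 4) in the forebrain part and 7614 ± 1419 (SD, n = 4) in the hindbrain part, a log2 difference of -1.44 ± 0.15 (SE, limma, adjusted p = 0.00162). The difference was -1.63 ± 0.21 within wild-type (adjusted p = 0.00924) and -1.24 ± 0.21 within Pax6 homozygous embryos (adjusted p = 0.0603) in limma. Those 2 values were not shown to differ, with an interaction of 0.39 ± 0.30 (adjusted p = 0.9995 in limma).

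Crmp1, of the same family, read 9655 and 10033 on the wild-type forebrain arrays, 9304 and 10820.1 on the Pax6 homozygous forebrain arrays, 14916 and 15407 on the wild-type hindbrain arrays and 13096 and 12408 on the Pax6 homozygous hindbrain arrays (U52102_at). Every hindbrain array again exceeded every forebrain array. The log2 difference was -0.48 ± 0.10, which missed the threshold (limma adjusted p = 0.072). It passed in a fit with the replicate block, the label number of the array (adjusted p = 0.0398 in limma), with the intensity floor at the pooled median (adjusted p = 0.0345) and after quantile normalization (adjusted p = 0.0492). Dpysl3, a CRMP abundant in newborn neurons, exceeded noise on 2 of 8 arrays, both in the hindbrain part, and read 142 to 377 in the forebrain part and 299 to 622 in the hindbrain part. No fold is given for values so near noise, and its limma difference did not pass (adjusted p = 0.619). Dpysl2, which promotes axon outgrowth, read 884 to 2508 over all arrays on rc_AA875444_at, with a region difference of -0.14 ± 0.28. The other Dpysl2 probe set, Z46882cds_at, differed by -0.91 ± 0.81 and had its second wild-type forebrain array below 0. Without that array the difference was 0.050.

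**Figure D1:**
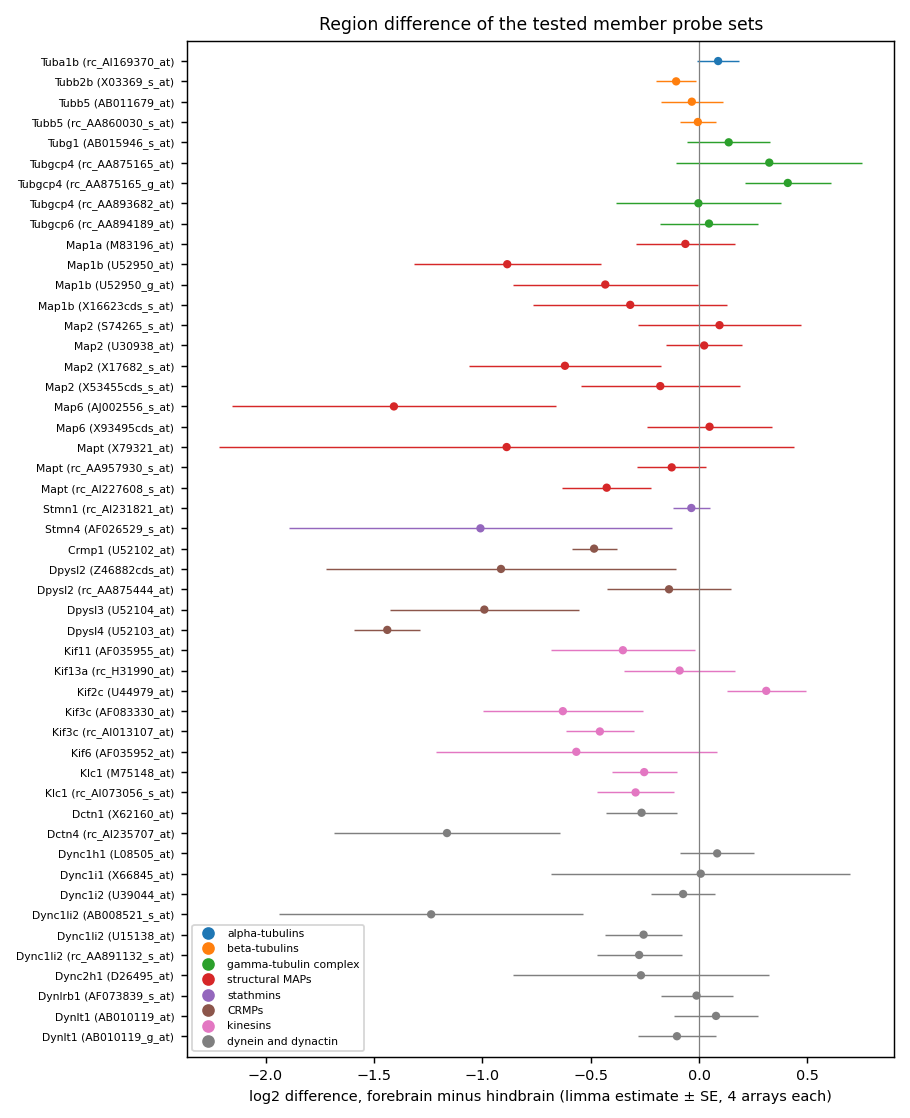
Forebrain minus hindbrain log2 difference of each of the 49 tested probe sets (points, limma estimates; lines, 1 SE; 4 arrays a part), coloured by role. Negative values are lower in the forebrain part; Dpysl4 at -1.44 is the 1 point that passed the test.

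The 250 bases upstream of the annotated start are shown for the 3 genes whose forebrain arrays all lay below their hindbrain arrays, and for Kif11, whose arrays separated by genotype. They are RefSeq sequences of build GRCr8, 5′ to 3′ on the strand of the gene, at chr1:203312463-203312712 on the plus strand (Dpysl4), chr14:77780917-77781166 on the minus strand (Crmp1), chr6:32086629-32086878 on the plus strand (Kif3c) and chr1:244536617-244536866 on the plus strand (Kif11). Capitals mark matches, on either strand, to the GC box (GGGCGG), the CCAAT box (CCAAT) and the octamer (ATGCAAAT).
Dpysl4: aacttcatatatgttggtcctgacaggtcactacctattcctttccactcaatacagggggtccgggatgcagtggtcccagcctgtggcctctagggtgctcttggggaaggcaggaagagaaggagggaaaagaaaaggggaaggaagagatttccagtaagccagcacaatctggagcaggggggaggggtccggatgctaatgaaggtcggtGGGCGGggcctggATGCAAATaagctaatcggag
Crmp1: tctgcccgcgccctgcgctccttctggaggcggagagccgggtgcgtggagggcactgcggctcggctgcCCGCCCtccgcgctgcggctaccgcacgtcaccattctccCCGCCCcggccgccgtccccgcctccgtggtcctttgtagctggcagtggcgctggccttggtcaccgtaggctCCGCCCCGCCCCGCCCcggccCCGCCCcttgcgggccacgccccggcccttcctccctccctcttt
Kif3c: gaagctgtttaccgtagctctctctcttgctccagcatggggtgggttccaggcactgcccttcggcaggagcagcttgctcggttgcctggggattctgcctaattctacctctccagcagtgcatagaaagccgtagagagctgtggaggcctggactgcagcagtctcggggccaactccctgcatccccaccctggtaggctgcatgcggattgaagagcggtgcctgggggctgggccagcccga
Kif11: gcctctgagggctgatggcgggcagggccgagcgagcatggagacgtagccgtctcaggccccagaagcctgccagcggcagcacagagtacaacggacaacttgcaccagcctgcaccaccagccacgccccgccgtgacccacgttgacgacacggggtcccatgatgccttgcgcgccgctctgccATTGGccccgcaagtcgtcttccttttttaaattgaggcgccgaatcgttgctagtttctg
The Crmp1 window held 6 GC boxes, with 2 overlaps between neighbouring matches, and was 76.4% G and C. Dpysl4 had 1 GC box and 1 octamer in a window of 54.4% G and C, and Kif11 had 1 CCAAT box. Kif3c matched none of these letters. Among 33469 upstream windows of the same length, 30.5% held a GC box, 34% a CCAAT box and 1.56% an octamer, a motif that was picked after the Dpysl4 window had been read. An E-box (CANNTG), found in 65.5% of windows, was in none of the 4. A match is a description of the letters and nothing more.

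The alpha-tubulins had 1 tested probe set and the beta-tubulins 3, and none passed in any of the 5 comparisons. Tuba1b, an alpha-tubulin subunit of the general tubulin pool, read 89624 and 107866 on the wild-type forebrain arrays, 89434 and 92792 on the Pax6 homozygous forebrain arrays, 101289.8 and 93612 on the wild-type hindbrain arrays and 90059.6 and 73629 on the Pax6 homozygous hindbrain arrays. The hindbrain genotype groups did not overlap, with a log2 difference of -0.26 ± 0.14 that did not pass (limma adjusted p = 0.989). The forebrain genotype groups overlapped. Tubb2b, a neuronal beta-tubulin, read 69849 and 81098 on the wild-type forebrain arrays, 62718 and 75101 on the Pax6 homozygous forebrain arrays, 75415 and 84752 on the wild-type hindbrain arrays and 76117 and 73544 on the Pax6 homozygous hindbrain arrays (X03369_s_at). The groups of each comparison overlapped, with differences of -0.11 ± 0.094 between regions and -0.11 ± 0.094 for genotype over both regions, which was 0.013 after quantile normalization. A second probe set for the same transcript, X03369_i_at, exceeded noise on no array. Tubb5, a beta-tubulin of progenitors and neurons, read 98316 to 123147 on rc_AA860030_s_at and 7059 to 9774 on AB011679_at. Its region differences were -0.0056 ± 0.083 and -0.033 ± 0.14. Tubulin transcripts are near-identical in their coding parts, so a probe set may collect signal from several of them, and probe sets ending in _s_at are those the array's makers expected to share sequence. Tuba4a read below 0 on all 8 arrays.

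Gamma-tubulin and its ring complex nucleate new microtubules at the centrosome. With all arrays these 5 probe sets, 3 of them of Tubgcp4, leaned against the rest of the group, and none passed. Their median region difference was 0.14 on the log2 scale, with 4 of 5 positive. The lean was lost without the second wild-type hindbrain array, where 3 of 5 were negative and the median was -0.028. With any other single array left out the median stayed positive, from 0.022 to 0.40. Tubg1, gamma-tubulin itself, read 2698 to 4255, and its region groups overlapped. Tubgcp4, a ring subunit, read 2209 and 2249.7 on the wild-type forebrain arrays, 2050.4 and 2208 on the Pax6 homozygous forebrain arrays, 1231 and 1817 on the wild-type hindbrain arrays and 1590.1 and 2034 on the Pax6 homozygous hindbrain arrays on rc_AA875165_g_at. Every forebrain array exceeded every hindbrain array there, by 0.41 ± 0.20 on the log2 scale (limma adjusted p = 0.661). It was the 1 member of 49 (2.04%) with this separation, against 2.23% of all probe sets. Its companions rc_AA875165_at and rc_AA893682_at differed between regions by 0.32 ± 0.43 and -0.0031 ± 0.38 with overlapping arrays. Tubgcp6, another ring subunit, read 927 to 1562.

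Structural microtubule-associated proteins were represented by 15 probe sets of 5 genes, of which 13 were tested and 10 had a negative region difference (median -0.32). None passed. Tau (Mapt) stabilises axonal microtubules. On rc_AA957930_s_at it read 2940.4 and 2959.9 on the wild-type forebrain arrays, 2839 and 2886 on the Pax6 homozygous forebrain arrays, 3635 and 3101 on the wild-type hindbrain arrays and 3446 and 2605 on the Pax6 homozygous hindbrain arrays. The regions overlapped on that probe set. On rc_AI227608_s_at it read 1051 and 938 on the wild-type forebrain arrays, 1220.2 and 1123 on the Pax6 homozygous forebrain arrays, 2127 and 1655 on the wild-type hindbrain arrays and 1034 and 1211 on the Pax6 homozygous hindbrain arrays. The wild-type hindbrain arrays stood above all others on this probe set. The genotype difference in the hindbrain part was -0.75 ± 0.29 (unadjusted p = 0.0318, limma adjusted p = 0.989) against -0.16 ± 0.22 on rc_AA957930_s_at. The interaction on rc_AI227608_s_at was 0.98 ± 0.41 (unadjusted p = 0.042, limma adjusted p = 0.9995).

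Map2 supports dendrites, and its probe sets disagreed with each other. U30938_at was the 1 above noise on all 8 arrays, at 3847 and 2809 on the wild-type forebrain arrays, 2412 and 3011 on the Pax6 homozygous forebrain arrays, 3111 and 3252 on the wild-type hindbrain arrays and 2988 and 2432 on the Pax6 homozygous hindbrain arrays. Its genotype difference over both regions was -0.26 ± 0.18. S74265_s_at instead read 336 and 191 on the wild-type forebrain arrays, 483 and 683 on the Pax6 homozygous forebrain arrays, 255 and 301 on the wild-type hindbrain arrays and 478 and 445 on the Pax6 homozygous hindbrain arrays. Its Pax6 homozygous arrays all lay above its wild-type arrays, by 0.96 ± 0.38 (unadjusted p = 0.032, limma adjusted p = 0.928). Neither of its wild-type forebrain arrays exceeded noise, and 1 of its 2 Pax6 homozygous forebrain arrays did, so no fold is given there. X17682_s_at and X53455cds_s_at gave 0.46 ± 0.44 and -0.40 ± 0.37 for the same comparison, of opposite sign.

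Map1b, an early axonal protein, read 134 to 600.5, 252 to 688 and 239.6 to 832 on its 3 probe sets, which exceeded noise on 4, 6 and 5 arrays. Their region differences were -0.89 ± 0.43, -0.43 ± 0.43 and -0.32 ± 0.45, with the same sign and overlapping arrays. Map1a, its adult-type relative, read 923 to 1710.2 on M83196_at, with a hindbrain genotype difference of -0.62 ± 0.32. Map6, which makes microtubules cold-stable, read 752 to 1714 on X93495cds_at, and its other probe set exceeded noise on 2 hindbrain arrays.

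**Figure D2:**
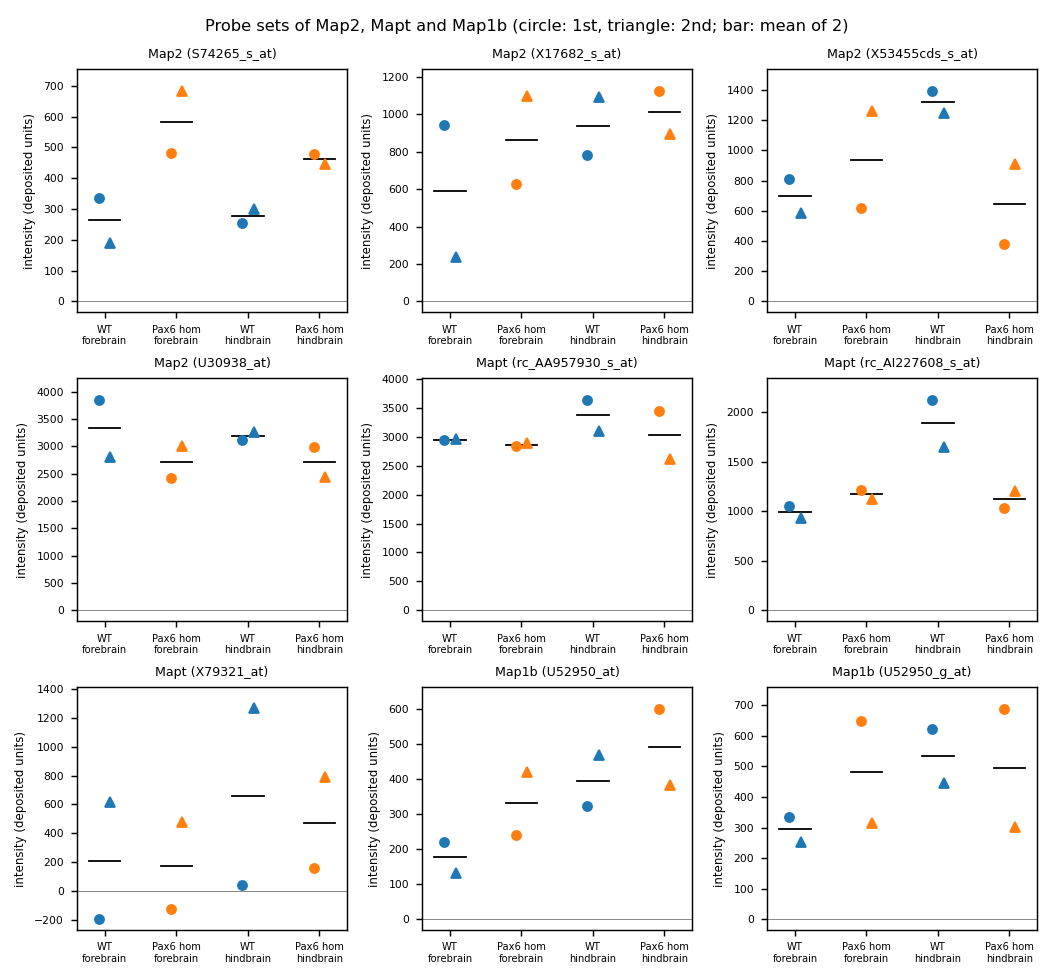
Intensity on each of the 8 arrays (circles, arrays labelled 1st; triangles, 2nd; bars, means of 2; linear axes) for 4 probe sets of Map2, 3 of Mapt and 2 of Map1b. Probe sets of 1 gene show different orders of the groups; on Mapt rc_AI227608_s_at the wild-type hindbrain arrays, at 2127 and 1655, stand highest, and on Mapt rc_AA957930_s_at the regions overlap.

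Disagreement of this kind was common. In 11 genes with several tested probe sets, the region difference had the same sign on all of a gene's probe sets in 7. The genotype difference had the same sign in 3 of 11 in the forebrain part, in 4 of 11 in the hindbrain part and in 4 of 11 over both regions.

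Stathmins bind free tubulin dimers and promote filament shortening. Stmn1, the family member of dividing and migrating cells, read 37974 and 39845 on the wild-type forebrain arrays, 37318 and 32643 on the Pax6 homozygous forebrain arrays, 39814 and 38220.0 on the wild-type hindbrain arrays and 37227 and 35921 on the Pax6 homozygous hindbrain arrays. The highest Pax6 homozygous array lay just below the lowest wild-type array. This separation was found in 1 of 49 members (2.04%), Stmn1, against 1.19% of all probe sets, and the log2 difference of -0.12 ± 0.084 did not pass (limma adjusted p = 0.928). Stmn4, a neural stathmin, ranged over -929 to 1279.9, and its lowest value stood on 1 wild-type forebrain array whose partner read 1148.

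Among kinesins, Kif11 (AF035955_at), the bipolar motor that pushes spindle poles apart, had the smallest unadjusted p of any member for genotype over both regions. It read 619 and 316 on the wild-type forebrain arrays, 1107 and 1028 on the Pax6 homozygous forebrain arrays, 426 and 839 on the wild-type hindbrain arrays and 1215 and 1359.9 on the Pax6 homozygous hindbrain arrays. All Pax6 homozygous arrays exceeded all wild-type arrays, and 1 array of each wild-type group was below noise. The log2 difference was 1.19 ± 0.33 over both regions (unadjusted p = 0.00639, limma adjusted p = 0.801), 1.27 ± 0.47 in the forebrain part and 1.10 ± 0.47 in the hindbrain part. Kif11 and Map2 S74265_s_at were the 2 members of 49 (4.08%) separated in this direction, against 2.38% of all probe sets. Of 11 tested genes that mark dividing cells, 0 passed in limma for genotype over both regions, 0 had an unadjusted p under 0.05 and 4 were negative, with a median log2 difference of 0.029. Stmn1, itself a member, was among the 11.

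Kif3c, a neuronal kinesin-2 subunit, read 2429.8 and 1986 on the wild-type forebrain arrays, 2367 and 2305 on the Pax6 homozygous forebrain arrays, 2861 and 3320.1 on the wild-type hindbrain arrays and 3142 and 3137 on the Pax6 homozygous hindbrain arrays on rc_AI013107_at. The regions did not overlap, and the difference of -0.46 ± 0.16 did not pass (unadjusted p = 0.0175, limma adjusted p = 0.362). With Dpysl4 and Crmp1 it made up the 3 of 49 members (6.12%) wholly lower in the forebrain part, against 4.37% of all probe sets. Its other probe set, AF083330_at, exceeded noise on 4 arrays and differed by -0.63 ± 0.37 with overlapping arrays. Klc1, the light chain that links kinesin-1 to cargo, gave -0.25 ± 0.15 (M75148_at, 6310.5 to 10401) and -0.29 ± 0.18 (rc_AI073056_s_at, 2142 to 3996) between regions. Kif2c, a depolymerising mitotic kinesin, was the 1 kinesin of 8 tested probe sets with a positive region difference, 0.31 ± 0.18, and read 1215 to 2149.7. Kif13a, a vesicle motor, read 1211 to 2574, and Kif6 exceeded noise on 1 array.

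Cytoplasmic dynein and dynactin carry cargo and nuclei toward the centrosome. Of 12 tested probe sets, 9 had a negative region difference (median -0.18) and none passed. Dync1h1, the heavy chain, read 9906 and 7644 on the wild-type forebrain arrays, 7318 and 8946 on the Pax6 homozygous forebrain arrays, 8985 and 8997 on the wild-type hindbrain arrays and 8687 and 5601 on the Pax6 homozygous hindbrain arrays. Region groups overlapped (0.084 ± 0.17), and the lowest value was on 1 Pax6 homozygous hindbrain array. The intermediate chain Dync1i2 read 2816 to 3917, with a genotype difference over both regions of 0.18 ± 0.15. The other intermediate chain, Dync1i1, exceeded noise on 1 array. Light intermediate chain Dync1li2 gave region differences of -0.26 ± 0.18 (U15138_at), -0.28 ± 0.20 (rc_AA891132_s_at) and -1.24 ± 0.70 (AB008521_s_at), and on the last 1 wild-type forebrain array was below 0. Without the first wild-type forebrain array the AB008521_s_at difference was -2.15. The wild-type forebrain group then held only its second array, at -88.2. That value therefore rests on the intensity floor of 45.9 and is no measured fold.

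The light chains Dynlrb1 and Dynlt1 link dynein to its cargo adaptors. Dynlrb1 read 19375 to 30076 and Dynlt1 read 5448 to 9178 on AB010119_at and 13174 to 23654 on AB010119_g_at, with region differences of -0.012 ± 0.17, 0.078 ± 0.20 and -0.10 ± 0.18. Dctn1, the dynactin arm that binds microtubules, read 5326 to 9099.6, with -0.27 ± 0.16 between regions. Dctn4, a subunit of the dynactin pointed end, read 106 and -7 on the wild-type forebrain arrays, 389.5 and 321 on the Pax6 homozygous forebrain arrays, 694 and 290.4 on the wild-type hindbrain arrays and 254 and 298 on the Pax6 homozygous hindbrain arrays. Neither wild-type forebrain array exceeded noise, and 1 lay below 0. The fitted forebrain genotype difference of 2.34 ± 0.74 (unadjusted p = 0.012, limma adjusted p = 1) therefore rests on the intensity floor of 45.9 and is no measured fold. Dync2h1, the ciliary dynein heavy chain, exceeded noise on 1 array and is in the same position. These were the other 2 members, besides Kif11, at an unadjusted p under 0.05 in the forebrain part.

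**Figure D3:**
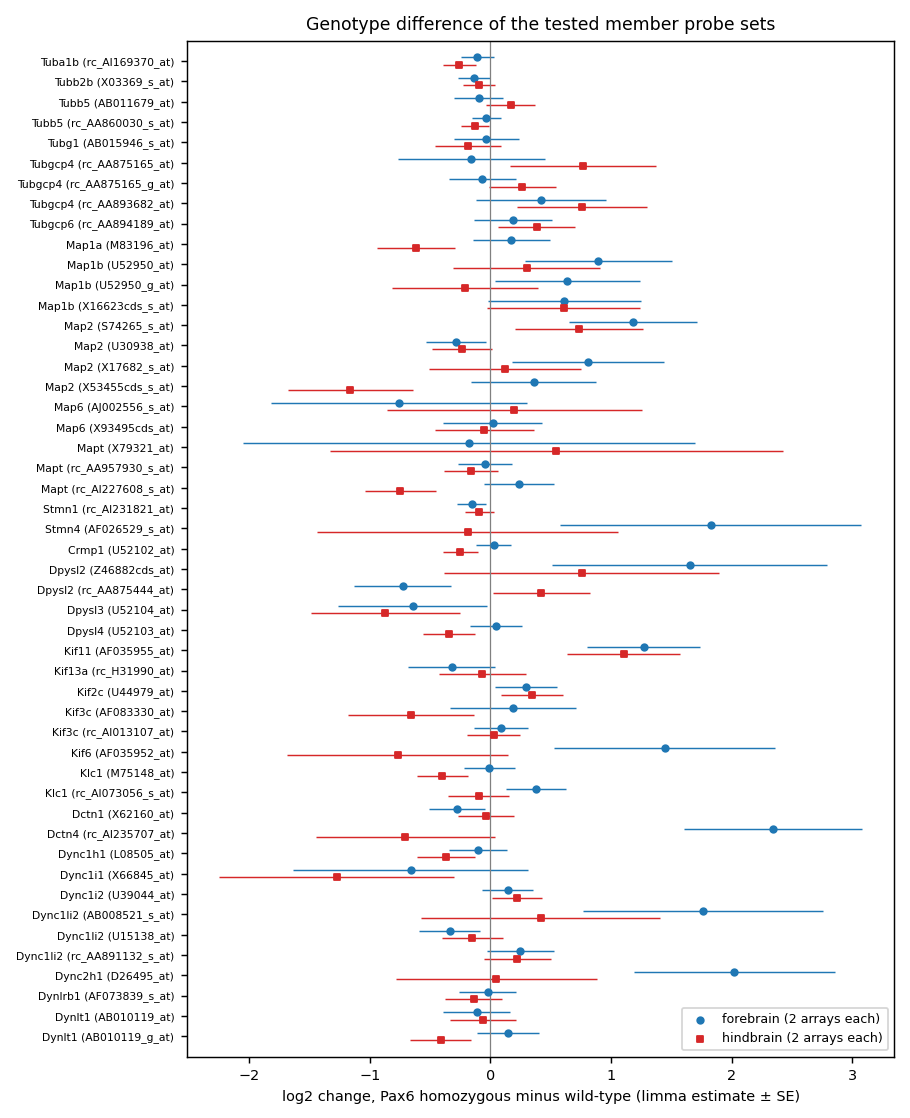
Pax6 homozygous minus wild-type log2 difference of each tested probe set in the forebrain part and in the hindbrain part (points, limma estimates; lines, 1 SE; 2 arrays a group). No point passed the test; Kif11 is positive in both parts, at 1.27 and 1.10.

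Separation of the 2 arrays of one genotype from the 2 of the other is common by itself and was counted against all probe sets. In the forebrain part 8 of 49 members (16.3%) were wholly higher in Pax6 homozygous embryos, against 12.4% of all, and 4 (8.16%) wholly lower, against 10.4%. In the hindbrain part 10 (20.4%) were wholly higher, against 20.0%. A further 14 (28.6%) were wholly lower there, against 14.4%. They were Tuba1b, Stmn1, Crmp1, Dpysl3, Dpysl4, Map1a M83196_at, Map2 U30938_at and X53455cds_s_at, Mapt rc_AI227608_s_at, Kif3c AF083330_at, Kif6, Klc1 M75148_at, Dync1h1 and Dynlt1 AB010119_g_at. None of them passed the test.

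Some members separated by the number of the array instead. On the 1st arrays of the 4 groups Mapt X79321_at read -196, -128, 41.4 and 158, and on the 2nd arrays it read 479 to 1272. Dynlt1 AB010119_at and Dynlrb1 were likewise wholly lower on the 1st arrays, which made 3 of 49 members (6.12%) against 5.05% of all probe sets. Tubb5 AB011679_at, Map6 X93495cds_at and Dpysl2 Z46882cds_at were wholly higher there (6.12%, against 14.0% of all).

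Marker lists of other cell types were set beside these counts. Of 18 tested neuronal marker genes (20 on the array, 23 listed), 16 had a negative forebrain minus hindbrain difference and 6 passed as lower in the forebrain part (limma, Benjamini-Hochberg), with a median of -0.62. Their summed intensity was 53816 to 58269 over the forebrain arrays. It was 123784 to 137689 in wild-type hindbrain and 100701 to 101134 in Pax6 homozygous hindbrain. For genotype in the hindbrain part 14 of the 18 were negative, 0 passed in limma and 4 had an unadjusted p under 0.05, with a median of -0.30. In whole tissue, fewer cells of a type and less RNA per cell cannot be told apart, and the part of neuron number in the member values was not tested. Of 14 tested markers of radial glia and other neural progenitors, 11 had a negative region difference, 1 passed as lower in the forebrain part in limma and 6 had an unadjusted p under 0.05, with a median of -0.30. Of 9 tested muscle markers 8 had a negative region difference and 2 passed as lower in the forebrain part. Their summed intensity was 1399 to 1972 in the forebrain part and 21742 to 23147 in the hindbrain part. Other lists leaned the other way. The region difference was positive in 8 of 11 markers of dividing cells (median 0.12), 5 of 5 of blood (0.18) and 5 of 5 of lens and eye (0.44), and 0 passed. Of 9 markers of mesenchyme and pharyngeal arch 4 were positive, 2 passed as higher in the forebrain part and 1 as lower. The part of these lists in the member values was not tested either.

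**Figure D4:**
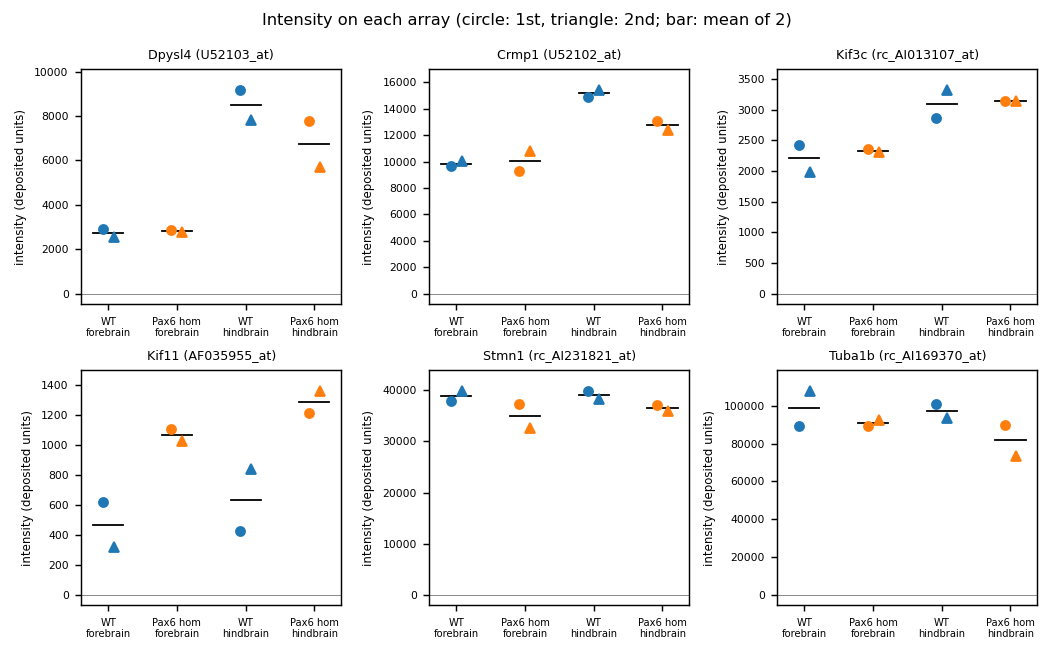
Intensity of Dpysl4, Crmp1, Kif3c, Kif11, Stmn1 and Tuba1b on each of the 8 arrays (circles, arrays labelled 1st; triangles, 2nd; blue, wild-type; orange, Pax6 homozygous; bars, means of 2; linear axes). Dpysl4, Crmp1 and Kif3c are higher on every hindbrain array than on any forebrain array, and Kif11 is higher on every Pax6 homozygous array than on any wild-type array.

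Other microtubule genes, listed separately from the rule, showed no called difference. Of 68 listed genes outside the rule, such as the plus-end binder Mapre1, the minus-end motor Kifc1, the dynein regulator Pafah1b1 and the deacetylase Hdac6, 26 were on the array and 25 were tested, and limma with Benjamini-Hochberg adjustment called 0 in each of the 5 comparisons. Of all probe sets 1.51% passed between regions and at most 0.0340% in the other comparisons, so 0 of 25 sets these genes apart from nothing. At an unadjusted p under 0.05 there were 2 of 25 between regions, against 8.09% of all, and 1 for genotype in the hindbrain part, against 4.49%. There were 0 for genotype in the forebrain part (2.92% of all), over both regions (5.02%) and for the interaction (1.90%). Their median region difference was -0.02, with 13 of 25 negative, and their median genotype difference over both regions was 0.068.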

How the data were processed

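RNA from the dissected parts was hybridised to 8 Affymetrix rat U34A arrays, per the labels' protocols. Values are the intensities the authors deposited, 1 for each probe set on each array. The program that made them was not given in the sources used here. The 2% trimmed mean was 2504 to 2505 on each array, so the deposited values were already scaled, and no further scaling was applied. Control probe sets (59) were left out of the tests but stayed in the trimmed means, the noise levels and the pooled percentiles. Gene symbols came from the platform annotation, and the Entrez identifiers of all 58 member probe sets matched RefSeq (GRCr8).

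Intensities were floored at the pooled 25th percentile (45.9), log2-transformed, kept where 2 or more arrays exceeded the pooled 40th percentile, and fitted over all 4 groups with limma 3.58.1 in R 4.3.3 (moderated variances with a trend on intensity, residual degrees of freedom 4), with Benjamini-Hochberg adjustment over 5881 probe sets. The fit and the adjustment were tested on simulated log2 values with known changes. The filter and the floor at the pooled 25th percentile were not part of that test.

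The labels number the arrays of each group 1st and 2nd. Deviations of same-numbered arrays from their group means correlated at 0.275 to 0.465 in the 6 pairs of groups, so the numbers were taken as pairing the arrays, and a fit with the number as a block was run beside the unblocked one. Named members were those past the threshold, the 8 with the smallest p in each direction of each comparison, the leading 3 of each role group, textbook neuronal and mitotic members, and all probe sets of a named gene. Members and lists were chosen with earlier results of these data known. Alternatives changed the floor, scale, filter, normalization, variance model, block and arrays used, and the region difference within each genotype was added after the data had been seen.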

Additional observations from a re-analysis of the deposited data

How the results depend on the processing

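Dpysl4 stayed lower in the forebrain part and past the threshold under 8 of 8 other choices of floor, scale, filter, normalization, variance model and replicate block, and without any single array (limma adjusted p from 0.000513 to 0.0209). Within Pax6 homozygous embryos alone its difference was -1.24 and missed the threshold. With all 8 arrays the number of members called between regions was 1. It became 2 with the floor at the pooled median, after quantile normalization and with the replicate block, the addition each time being Crmp1 (-0.48, -0.50 and -0.48). In that order, 79, 63 and 107 of all 5881 probe sets passed as lower in the forebrain part, against 72 in the main fit. Without the first wild-type forebrain array the Dync1li2 AB008521_s_at difference was -2.15. That value rests on the floor, because the remaining array of that group lay below 0. The genotype comparisons and the interaction called 0 members under every alternative run. The paired fit changed no call other than that of Crmp1. Of 1601 values of 97 named results under alternatives, 43 in 24 results changed sign, and none of these results passed the test; the cause was not tested. With the floor at the pooled median, genotype over both regions was -0.041 for Stmn4 and -0.12 for Dctn4, and the interaction was 0.25 for Map6 AJ002556_s_at. Quantile normalization gave 0.013 for Tubb2b and 0.067 for Tubb5 rc_AA860030_s_at in genotype over both regions. The region difference within wild-type alone was 0.10 for Tubb5 AB011679_at, -0.047 for Dync1h1 and -0.13 for Map2 S74265_s_at. Within Pax6 homozygous embryos it was 0.041 for Tubb5 rc_AA860030_s_at, -0.14 for Tubgcp4 rc_AA875165_at, 0.066 for Mapt rc_AI227608_s_at and 0.36 for Dctn4. With each array left out in turn the region difference ran from -0.075 to 0.24 for Dync1h1 L08505_at, -0.11 to 0.27 for Dynlt1 AB010119_at, -0.11 to 0.30 for Map2 S74265_s_at, -0.084 to 0.013 for Stmn1 rc_AI231821_at, -2.17 to 0.15 for Stmn4 AF026529_s_at, -0.13 to 0.062 for Tubb5 AB011679_at, -0.074 to 0.063 for Tubb5 rc_AA860030_s_at and -0.028 to 0.30 for Tubg1 AB015946_s_at. With each array left out in turn the forebrain genotype difference ran from -0.57 to 0.014 for Dctn1 X62160_at, -0.066 to 3.59 for Dync1li2 AB008521_s_at, -0.72 to 0.041 for Dync1li2 U15138_at and -0.87 to 0.22 for Kif13a rc_H31990_at. With each array left out in turn the genotype difference over both regions ran from -0.34 to 1.98 for Stmn4 AF026529_s_at and -0.059 to 0.13 for Tubb5 AB011679_at. With each array left out in turn the interaction ran from -0.53 to 0.050 for Dctn1 X62160_at, -0.57 to 0.19 for Dync1li2 U15138_at, -0.80 to 0.29 for Kif13a rc_H31990_at and -2.35 to 0.43 for Map6 AJ002556_s_at. Values near an array's noise level are set largely by the floor.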
